A study of Homo sapiens with 21 samples.

Results

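Keratins are the intermediate filament proteins of epithelial cells, and 10 of them were followed here across 21 RNA-seq libraries of human cancer cell lines. The members were chosen by symbol: KRT7, KRT8, KRT18 and KRT19 of simple epithelium, KRT5, KRT14 and KRT15 of the basal layer of stratified epithelium, and KRT6A, KRT16 and KRT17, which stratified epithelium makes under stress or injury. They are 10 of the 20970 genes listed in any of the 4 tables. All 10 were listed in the 3 tables of FADU, a head and neck squamous carcinoma line, and only 2, KRT8 and KRT18, in the table of BFTC909, a transitional carcinoma line of the renal pelvis.

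The study asked what METTL4, an adenine methyltransferase, contributes to the response of tumour cells to low oxygen. In the knockdown experiment each line was measured as cells labelled Scramble-si in normoxia (18% O2), Scramble-si in hypoxia (1% O2) and METL4-si in hypoxia, written METTL4-si here, each for 18 h and with 2 libraries a group. The labels call these siRNA cells, while the study's methods describe knockdown by lentiviral short hairpins. In the overexpression experiment, FADU cells at 18% O2 carried a control vector, METTL4 (METTL4-OE) or the long noncoding RNA RP11-390F4.3 (RP11-390F4.3-OE), with 2 libraries each. The labels give 18 h for these cells and for the mutant experiment as well. In the mutant experiment, FADU cells at 1% O2 were 1 CRISPR control library, labelled WT, and 1 library from each of 2 METTL4-DPPW-mut clones, in which prime editing had changed the catalytic motif of METTL4, so a clone stands for a single cell's descendants. Nothing in the labels says that the 2 libraries of a group came from separate cultures, so p-values measure the spread between libraries, which may be technical.

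Keratin filaments are built from pairs of a type II (basic) and a type I (acidic) chain, and a chain without its partner is generally degraded. KRT8 pairs with KRT18, and also with KRT19, in simple epithelium. KRT5 pairs with KRT14 and KRT15 in dividing basal keratinocytes, and KRT6A pairs with KRT16 and KRT17 in wounded or hyperproliferative epithelium. Squamous carcinomas often carry both the simple and the stratified sets, and loss of KRT8, KRT18 and KRT19 is used as a sign of epithelial-mesenchymal transition.

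The type II genes lie in a cluster on chromosome 12 and the type I genes on chromosome 17, with KRT18 as the exception beside KRT8. On GRCh37, the build of the tables (hg19), KRT8 (ENSG00000170421) lies at chr12:53290971-53343738 on the minus strand and KRT18 (ENSG00000111057) at chr12:53342655-53346690 on the plus strand. Their annotated ends overlap head to head. KRT5 (ENSG00000186081) lies at chr12:52908359-52914314, KRT6A (ENSG00000205420) at chr12:52880960-52887041 both on the minus strand, and KRT7 (ENSG00000135480) at chr12:52626304-52645970 on the plus strand, where it overlaps KRT86. On chromosome 17, KRT14 (ENSG00000186847) at chr17:39738531-39743147, KRT16 (ENSG00000186832) at chr17:39766030-39772151 and KRT17 (ENSG00000128422) at chr17:39775694-39781094 are neighbours, as are KRT15 (ENSG00000171346) at chr17:39669997-39678781 and KRT19 (ENSG00000171345) at chr17:39679869-39684560, all on the minus strand. KRT6A, KRT14, KRT16, KRT17, KRT8 and KRT18 have near-identical gene or pseudogene copies, so their counts are uncertain where reads could not be placed on 1 copy.

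Values are the authors' TMM-normalized read counts scaled to library size (CPM), and the 21 libraries hold 17.8 M to 25.4 M reads on genes. CA9, a target of the hypoxia pathway, was at 31.0 and 37.8 in hypoxic Scramble-si FADU and at 2.33 and 2.55 in normoxic. METTL4 itself was at 157 and 139 in METTL4-OE against 35.4 and 32.7 in the controls. In FADU, however, METTL4 was at 24.2 and 27.1 in the libraries labelled METTL4-si against 26.6 and 25.3 in Scramble-si, so the FADU labels are used below only as labels, although CA9 was at 1.87 and 2.22 in those libraries. In BFTC909, METTL4 was at 14.4 and 12.2 in METTL4-si against 19.0 and 15.6. VIM, the mesenchymal filament gene, stayed at or under 3.02 in every FADU library and lay between 3230 and 5476 in BFTC909.

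Some libraries stood apart from the other library of their group. Of 9 markers of breast luminal epithelium, 8 were listed in the FADU knockdown table, and their summed value was 947 in METTL4-si replicate 1 and 227 in normoxia replicate 1 against 60.8 to 94.3 in the other 4. TFF1, a defining marker, was at 135 and 26.2 in those 2 libraries and at 0 in the other 4. In BFTC909, 5 of 10 markers of simple and luminal epithelium were listed, and their sum was 90.3 in METTL4-si replicate 2 against 6.09 to 9.13 in the other 5 libraries, with EPCAM at 26.5 against at most 1.69. Of the breast luminal markers 4 were listed there, and their sum did not set this library apart: it was 731 in METTL4-si replicate 2 and 442 in replicate 1, against 1179 and 1210 in hypoxic and 426 and 444 in normoxic Scramble-si. Among them GATA3 was at 128 against at most 0.964 and GREB1 at 121 against at most 10.7. CA12 was at 285 against 996 and 1017 in hypoxic Scramble-si. GATA3 is also on the list of 9 urothelium markers, of which 3 were listed there. The urothelium sum was 149 in METTL4-si replicate 2 against 11.7 to 29.3 in the other 5 libraries, most of it GATA3. PPARG, on the same list, was at 20.4 in this library against 10.7 to 28.2. In the RP11-390F4.3-OE columns, GREB1 was at 2.94 and 26.9 and GATA3 at 2.98 and 16.5. The breast luminal sum was 59.9 and 122 there, against 71.2 to 74.7 in control and METTL4-OE libraries. Keratin results that rest on the 2 FADU knockdown libraries or on BFTC909 METTL4-si replicate 2 are given with and without them. RP11-390F4.3-OE column 2 was left out only when each library was left out in turn. The part of the markers in the results was not tested.

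In normoxic FADU cells the basal keratin KRT5 was the most abundant keratin per kilobase, whichever length was used. Per kilobase of merged exons, the mean of normoxic Scramble-si was 653 for KRT5, 412 for KRT18, 260 for KRT8, 256 for KRT19, 77.2 for KRT14 and 53.0 for KRT17. Per kilobase of the MANE Select transcript, an alternative added after the values were seen, KRT5 was at 1206, KRT8 at 1003, KRT18 at 894 and KRT19 at 431, so the order of KRT8 and KRT18 depends on the length chosen. KRT15 (20.7 per kilobase of merged exons), KRT6A (12.2), KRT7 (5.79) and KRT16 (2.21) were lower. FADU thus carried the partners KRT8 and KRT18 and the basal keratin KRT5 at high levels in the same cultures, with KRT14, the usual partner of KRT5, far below it.

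**Figure D1:**
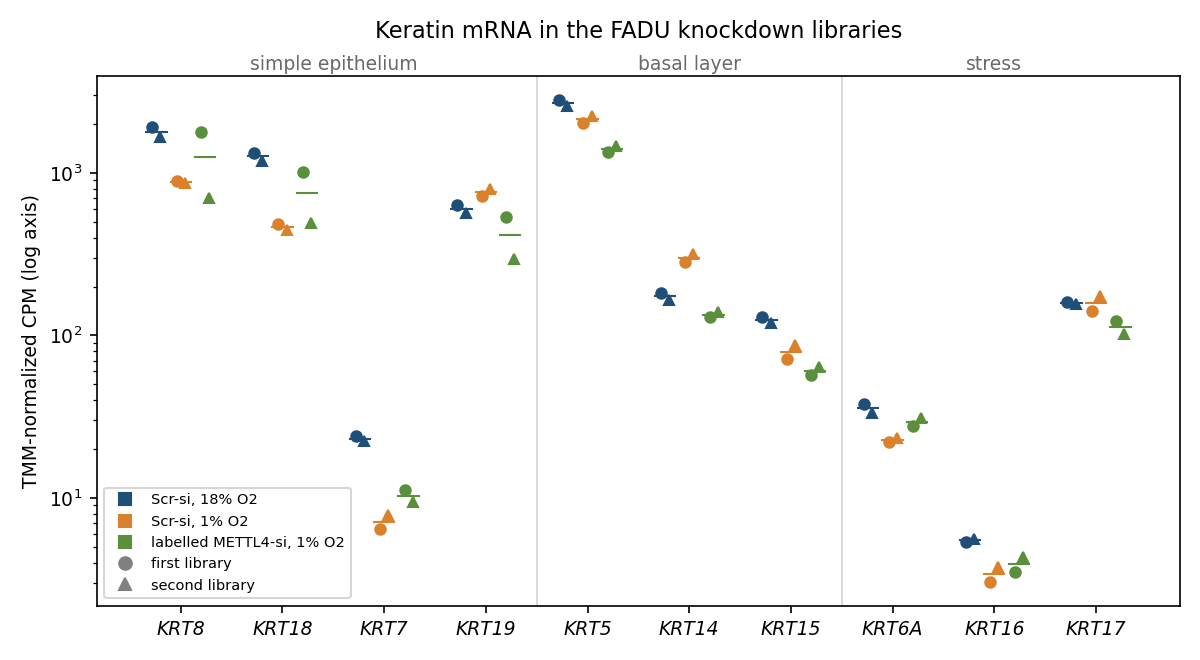
Each point is 1 FADU knockdown library, with TMM-normalized CPM on a log axis for the 10 keratins and a short line at the mean of each group of 2. KRT8, KRT18 and KRT7 lie lower at 1% O2 than at 18% O2 in Scramble-si cells, KRT14 lies higher, and the 2 libraries labelled METTL4-si lie far apart for KRT8, KRT18 and KRT19.

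Hypoxia lowered the simple epithelium pair KRT8 and KRT18 and KRT7 in FADU and raised the basal keratin KRT14. A gene is said to have risen or fallen where it passed the criterion of the study, 1.3-fold with an unadjusted p under 0.05, here by limma on log2(value + 1). Of the 10 keratins, 1 rose and 6 fell, while 12.4% of all 16324 genes tested rose and 12.5% fell. The libraries of the 2 groups did not overlap for 9 of 10 keratins, and in 73.0% of all genes. The median log2 fold change was -0.60 over the 10 keratins and -0.03 over all genes.

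KRT18 was at 1334 and 1193 in normoxia and at 484 and 444 in hypoxia. KRT8 was at 1911 and 1668 in normoxia and at 895 and 871 in hypoxia. Both partners were lower in each hypoxic library than in each normoxic library. KRT18 fell by 1.44 on the log2 scale (SE 0.29, limma adjusted p = 0.0161) and KRT8 fell by 1.02 (SE 0.38, unadjusted p = 0.0335, limma adjusted p = 0.0978). The spread in this fit includes the libraries labelled METTL4-si, which lie far apart for both genes. Without METTL4-si replicate 1, the KRT8 difference of -1.02 had a limma adjusted p = 4.58e-07, and leaving out any of the 4 Scramble-si libraries ended its call.

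KRT7, another simple epithelium type II keratin, was at 23.9 and 22.3 in normoxia and at 6.43 and 7.84 in hypoxia, and fell by 1.57 on the log2 scale (SE 0.13, limma adjusted p = 0.000844). This was the largest fall among the 10. KRT19, the remaining type I keratin of simple epithelium, did not follow the other simple keratins: it was at 631 and 566 in normoxia and at 721 and 798 in hypoxia, a log2 fold change of 0.34 (SE 0.25) that did not pass the criterion. Without normoxia replicate 1 and METTL4-si replicate 1, the libraries with raised breast markers, its difference was 0.42 and passed.

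Among the basal keratins, KRT14 was at 182 and 166 in normoxia and at 284 and 316 in hypoxia, and rose by 0.78 on the log2 scale (SE 0.08, limma adjusted p = 0.00185). KRT15 went the other way, from 129 and 119 to 71.2 and 86.7, and fell by 0.65 (SE 0.11, limma adjusted p = 0.00948). KRT5 was at 2819 and 2580 in normoxia and at 2023 and 2245 in hypoxia, a log2 fold change of -0.34 that did not reach 1.3-fold, and that did so without normoxia replicate 2 (-0.40) or hypoxia replicate 2 (-0.41). The value of KRT14 relative to KRT5 was 0.0647 and 0.0643 in normoxia and 0.140 and 0.141 in hypoxia, and it was close within each pair of libraries.

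Of the stress keratins, KRT6A fell by 0.63 (SE 0.10, limma adjusted p = 0.00694), from 38.0 and 33.5 to 22.0 and 23.4. Its partner KRT16 fell by 0.56 (SE 0.15, limma adjusted p = 0.0358), from 5.36 and 5.58 to 3.06 and 3.74, which rest on 68 to 129 reads a library, a call that ended without Scramble-si hypoxia replicate 1 (-0.45). KRT17 was at 161 and 157 in normoxia and at 141 and 174 in hypoxia, and these ranges overlapped.

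In the FADU libraries labelled METTL4-si under hypoxia, KRT14 was lower than in Scramble-si under hypoxia, with KRT5, KRT17 and KRT19, and KRT7 was higher. Of the 10 keratins, 1 rose and 4 fell, against 15.2% of all genes that rose and 16.8% that fell. The libraries did not overlap for 8 of 10 keratins and for 68.3% of all genes. The median log2 fold change was -0.11 over the 10 keratins and 0.02 over all genes. This comparison shares its Scramble-si hypoxia libraries with the one above, so the opposite signs of KRT14 and KRT7 are not independent of it.

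KRT14 was at 284 and 316 in hypoxic Scramble-si and at 130 and 138 in the libraries labelled METTL4-si, against 182 and 166 in normoxia. It fell by 1.16 on the log2 scale (SE 0.08, limma adjusted p = 0.000333), and both METTL4-si libraries lay below every other library of the table. KRT5 was at 1340 and 1459 against 2023 and 2245 and fell by 0.61 (SE 0.10, limma adjusted p = 0.00507). KRT15 was at 57.2 and 64.2 against 71.2 and 86.7, a log2 fold change of -0.37 just under 1.3-fold, which passed without Scramble-si hypoxia replicate 1 (-0.51) or METTL4-si replicate 2 (-0.45). All 3 basal keratins were therefore lowest in the METTL4-si group, and KRT15 did not pass the criterion.

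KRT8 was at 895 and 871 in hypoxic Scramble-si but at 1790 and 700 in the libraries labelled METTL4-si. KRT18 was at 484 and 444 against 1010 and 494. Replicate 1, the library with raised breast markers, was 2.56 times replicate 2 for KRT8 and 2.04 times for KRT18, while in the other groups of this table the ratio of the higher to the lower library was at most 1.15 for both. Neither gene passed the criterion, with log2 fold changes of 0.34 (SE 0.38) for KRT8 and 0.61 (SE 0.29) for KRT18. Without replicate 1, the KRT8 difference turned to -0.33 and that of KRT18 was 0.09, and without replicate 2 both were called as rises, KRT8 by 1.02 and KRT18 by 1.12. KRT8 and KRT18 are themselves markers of luminal epithelium, and the value of KRT5 relative to KRT8 was 0.749 in replicate 1 against 1.48 to 2.58 in the other 5 libraries.

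KRT19 was also uneven, at 539 and 295 against 721 and 798 in hypoxic Scramble-si. It fell by 0.93 (SE 0.25, limma adjusted p = 0.0302), and by 1.36 without replicate 1, and was no longer called without Scramble-si hypoxia replicate 2 (-0.85). KRT7 was at 11.2 and 9.48 against 6.43 and 7.84 and rose by 0.48 (SE 0.13, limma adjusted p = 0.0322), a call that ended at 0.37 without replicate 1 and at 0.36 without Scramble-si hypoxia replicate 1. KRT17 was at 123 and 102 against 141 and 174 and fell by 0.48 (SE 0.13, limma adjusted p = 0.0258), a call that ended without METTL4-si replicate 2 (-0.35) or Scramble-si hypoxia replicate 2 (-0.33). KRT6A was at 27.8 and 31.0 against 22.0 and 23.4, a log2 fold change of 0.36 just under 1.3-fold. It passed as a rise without METTL4-si replicate 1 (0.43) or Scramble-si hypoxia replicate 2 (0.40). KRT16 overlapped.

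In BFTC909 the 2 listed keratins were at low values in 5 libraries and far higher in METTL4-si replicate 2. Its table was normalized apart from those of FADU, so levels are set side by side without a test. KRT18 was at 76.3 and 73.4 in normoxia, 17.2 and 16.7 in hypoxic Scramble-si, and 24.2 and 379 in METTL4-si. KRT8 was at 7.21 and 7.55 in normoxia, 2.60 and 3.25 in hypoxic Scramble-si, and 5.02 and 715 in METTL4-si. METTL4-si replicate 2 thus held 143 times the KRT8 and 15.6 times the KRT18 of replicate 1, from 14201 against 107 reads for KRT8 and 7536 against 517 reads for KRT18. The other 8 keratins were not listed in this table, which keeps only genes with at least 9 reads in the second-highest library, so a gene that was high in METTL4-si replicate 2 alone could be absent from it and no level is given for them.

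**Figure D2:**
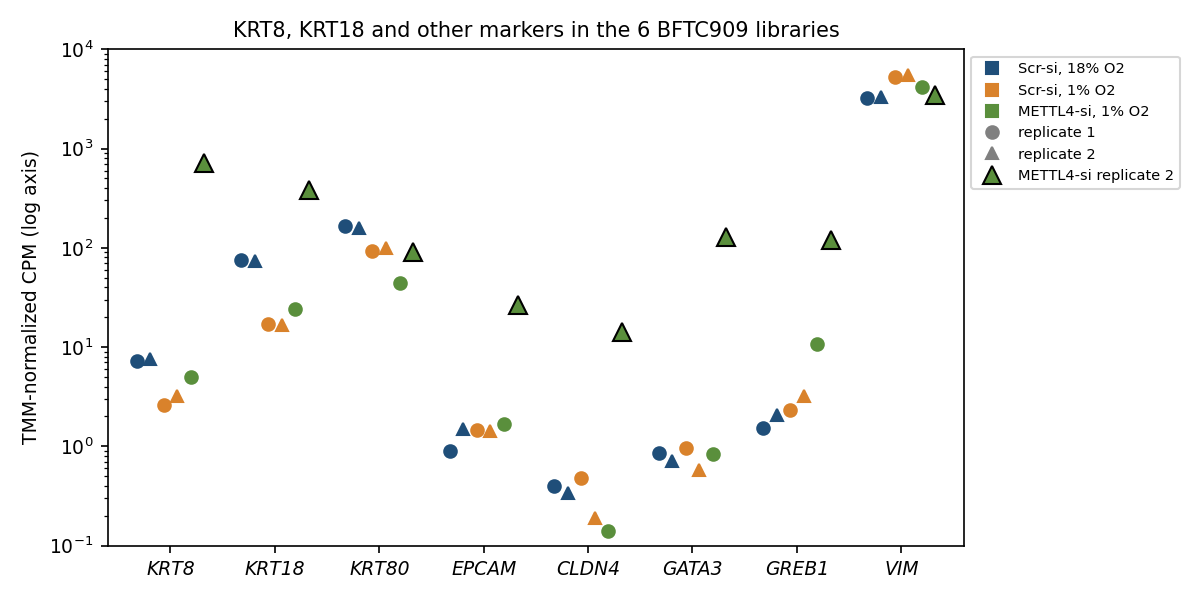
Each point is 1 of the 6 BFTC909 libraries, with TMM-normalized CPM on a log axis. The genes are KRT8, KRT18, KRT80 and markers of simple epithelium (EPCAM, CLDN4), luminal epithelium (GATA3, GREB1) and mesenchyme (VIM). GATA3 is also on the urothelium list. METTL4-si replicate 2, drawn with a black outline, lies above the other 5 libraries for KRT8, KRT18, EPCAM, CLDN4, GATA3 and GREB1, and among them for KRT80 and VIM.

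Between hypoxia and normoxia in BFTC909, KRT18 differed by -2.08 on the log2 scale (SE 1.02, limma adjusted p = 0.136) and KRT8 by -1.10 (SE 1.80, limma adjusted p = 0.647). Neither was called, so 0 of 2 rose and 0 of 2 fell by limma, against 19.5% and 19.2% of the 14869 genes tested, and edgeR on whole reads also called 0. At an unadjusted p under 0.05 there was likewise no keratin. The libraries did not overlap for either gene, which was so for 82.2% of all genes. The large errors come from the spread shared with the METTL4-si pair: without METTL4-si replicate 2 the same differences had limma adjusted p-values of 2.93e-12 for KRT18 and 3.4e-06 for KRT8, and both were called as falls.

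Between METTL4-si and Scramble-si in hypoxic BFTC909, KRT18 had a log2 fold change of 2.45 (SE 1.02, unadjusted p = 0.0462, limma adjusted p = 0.108) and KRT8 one of 4.07 (SE 1.80, limma adjusted p = 0.126). By the criterion 1 of 2 rose and 0 fell, against 15.7% and 12.9% of all genes, and libraries did not overlap for either, as for 64.7% of all genes. Without replicate 2 the differences were 0.49 for KRT18 and 0.62 for KRT8, both called, from a single METTL4-si library assumed to vary like the others. The KRT18 call also ended when any of the 4 Scramble-si libraries was left out, at 2.43 to 2.47. The size of these rises therefore rests on METTL4-si replicate 2, and a smaller rise was present in replicate 1.

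In the same library, 30 genes had a value of at least 10 and at least 10 times that of every other BFTC909 library, KRT8 among them. All 30 were listed in the FADU knockdown table, and all 30 were higher in FADU METTL4-si replicate 1 than in replicate 2, with a median ratio of 2.31. The share of all genes that were higher in that replicate was not computed, so this count has no baseline. The 30 were also picked as extreme in the BFTC909 library. Among the 30 genes are GATA3, GREB1, SULF2 (135), EPCAM, CLDN4 (14.3), a tight junction gene, and MUC16 (13.5). Per kilobase of transcript, KRT8 was 1.49 times KRT18 in this library and 0.0748 to 0.164 times in the other 5. These are the only type II and type I members listed in BFTC909, so the ratio was not set beside the sums of FADU. Without division by length, the same ratio of KRT8 to KRT18 was 1.88 in this library and 0.0945 to 0.207 in the other 5. It lay between 1.33 and 2.16 in FADU. Whether RNA of another kind of cell contributed to this library was not tested.

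METTL4-OE in normoxic FADU cells lowered the abundant keratins by similar amounts and raised KRT6A. Of the 10 keratins, 1 rose and 6 fell, against 8.30% of all 15644 genes that rose and 11.1% that fell. The libraries of both groups did not overlap for any of the 10 keratins, as for 69.8% of all genes. The median log2 fold change was -0.42 over the 10 keratins and 0.01 over all genes.

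KRT8 was at 1646 and 1671 in controls and at 1121 and 1070 in METTL4-OE, and fell by 0.60 (SE 0.05, limma adjusted p = 3.58e-07). KRT18 was at 1170 and 1137 against 830 and 804 and fell by 0.50 (SE 0.05, limma adjusted p = 2.16e-06). KRT19 fell by 0.43 (SE 0.04, limma adjusted p = 5.09e-06), from 585 and 572 to 437 and 423. The 2 libraries of each group lay within a few percent of each other for these simple keratins, unlike in the knockdown experiment. KRT7 was at 22.2 and 23.8 against 25.2 and 24.9 and did not pass the criterion.

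KRT5 was at 2728 and 2661 in controls and at 2052 and 1978 in METTL4-OE, and fell by 0.42 (SE 0.06, limma adjusted p = 6.77e-05). KRT14 was at 148 and 144 against 143 and 134, a log2 fold change of -0.07 (SE 0.05, limma adjusted p = 0.237). The basal pair thus moved unequally. KRT15 was at 117 and 120 against 90.9 and 95.6, a log2 fold change of -0.35 that stayed just under 1.3-fold and passed without METTL4-OE replicate 2 (-0.38).

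KRT6A was at 28.1 and 25.9 in controls and at 38.3 and 42.4 in METTL4-OE, and rose by 0.56 (SE 0.07, limma adjusted p = 2.58e-05). Its partner KRT16 fell by 0.68 (SE 0.13, limma adjusted p = 0.00107), from 4.58 and 4.37 to 2.19 and 2.67, on 44 to 96 reads a library. KRT17 fell by 0.42 (SE 0.07, limma adjusted p = 0.000288), from 133 and 133 to 109 and 89.9, and no longer passed without METTL4-OE replicate 2 (-0.28). The value of KRT6A relative to KRT16 was 6.14 and 5.93 in controls and 17.5 and 15.9 in METTL4-OE.

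**Figure D3:**
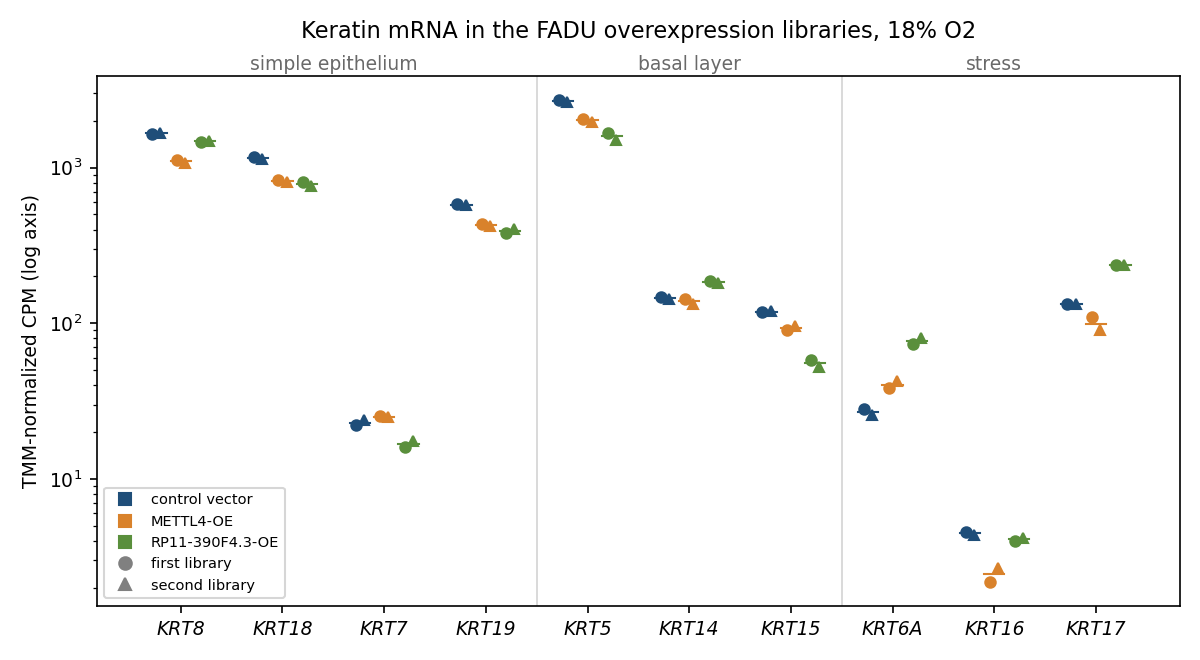
Each point is 1 FADU overexpression library at 18% O2, with TMM-normalized CPM on a log axis and a short line at each group mean. KRT6A steps up from control to METTL4-OE to RP11-390F4.3-OE, KRT15 and KRT5 step down in the same order, and KRT17 is lowest in METTL4-OE and highest in RP11-390F4.3-OE.

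RP11-390F4.3-OE raised the stress keratins KRT6A and KRT17 and lowered the basal keratins KRT5 and KRT15. Its columns carry a name that is not in the labels and were given to this group by elimination. Against the same control libraries as above, 2 of 10 keratins rose and 5 fell, while 16.8% of all genes rose and 12.8% fell. The libraries did not overlap for any of the 10, as for 75.9% of all genes. The median log2 fold change was -0.30 over the 10 keratins and 0.01 over all genes.

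KRT6A was at 28.1 and 25.9 in controls and at 73.5 and 80.4 in RP11-390F4.3-OE, and rose by 1.48 (SE 0.07, limma adjusted p = 1.27e-09). KRT17 was at 133 and 133 against 236 and 237 and rose by 0.83 (SE 0.07, limma adjusted p = 3.49e-07). KRT16 was at 4.58 and 4.37 against 3.99 and 4.198 and did not pass the criterion. So 2 of the 3 stress keratins rose, and the column with GREB1 at 26.9 gave nearly the same values of KRT6A and KRT17 as the other column.

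KRT15 was at 117 and 120 in controls and at 58.2 and 52.6 in RP11-390F4.3-OE, and fell by 1.09 (SE 0.06, limma adjusted p = 3.10e-09). KRT5 was at 1670 and 1506 against 2728 and 2661 and fell by 0.76 (SE 0.06, limma adjusted p = 1.53e-07). KRT14 was at 186 and 181 against 148 and 144, a log2 fold change of 0.33 (SE 0.05, limma adjusted p = 5.75e-05) that stayed under 1.3-fold. The value of KRT14 relative to KRT5 was 0.0541 and 0.0540 in controls and 0.111 and 0.120 in RP11-390F4.3-OE.

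Of the simple keratins, KRT18 fell by 0.55 (SE 0.05, limma adjusted p = 5.17e-07), from 1170 and 1137 to 809 and 765. KRT8 was at 1646 and 1671 against 1467 and 1484, a log2 fold change of -0.17 under 1.3-fold, so the KRT8 to KRT18 ratio went from 1.41 and 1.47 to 1.81 and 1.94. KRT19 fell by 0.56 (SE 0.04, limma adjusted p = 2.38e-07), from 585 and 572 to 382 and 402. KRT7 was at 16.1 and 17.6 against 22.2 and 23.8 and fell by 0.43 (SE 0.08, limma adjusted p = 0.000395), a call that ended without column 1 (-0.37).

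The 2 overexpression groups were also compared directly, in a contrast added after the values had been seen. Of the 10 keratins, 5 were higher in RP11-390F4.3-OE than in METTL4-OE and 2 were lower, against 18.8% of all genes higher and 13.6% lower. The libraries did not overlap for 9 of 10, as for 77.9% of all genes. KRT17 was higher by 1.25 on the log2 scale (SE 0.07, limma adjusted p = 6.51e-09) and KRT6A by 0.92 (SE 0.07, limma adjusted p = 1.34e-07). KRT16 (0.57), KRT8 (0.43) and KRT14 (0.41) were also higher, of which KRT8 (0.35) and KRT14 (0.32) no longer passed when libraries were centred on their median, nor KRT14 without METTL4-OE replicate 2 (0.36). KRT15 was lower by 0.74 (log2 difference -0.74, SE 0.06, limma adjusted p = 1.31e-07) and KRT7 had a difference of -0.55 (SE 0.08). KRT5, at -0.34, passed only with median centring (-0.43) or without RP11-390F4.3-OE column 1 (-0.42). KRT18, at 809 and 765 against 830 and 804, overlapped, with a difference of -0.05 (SE 0.05).

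**Figure D4:**
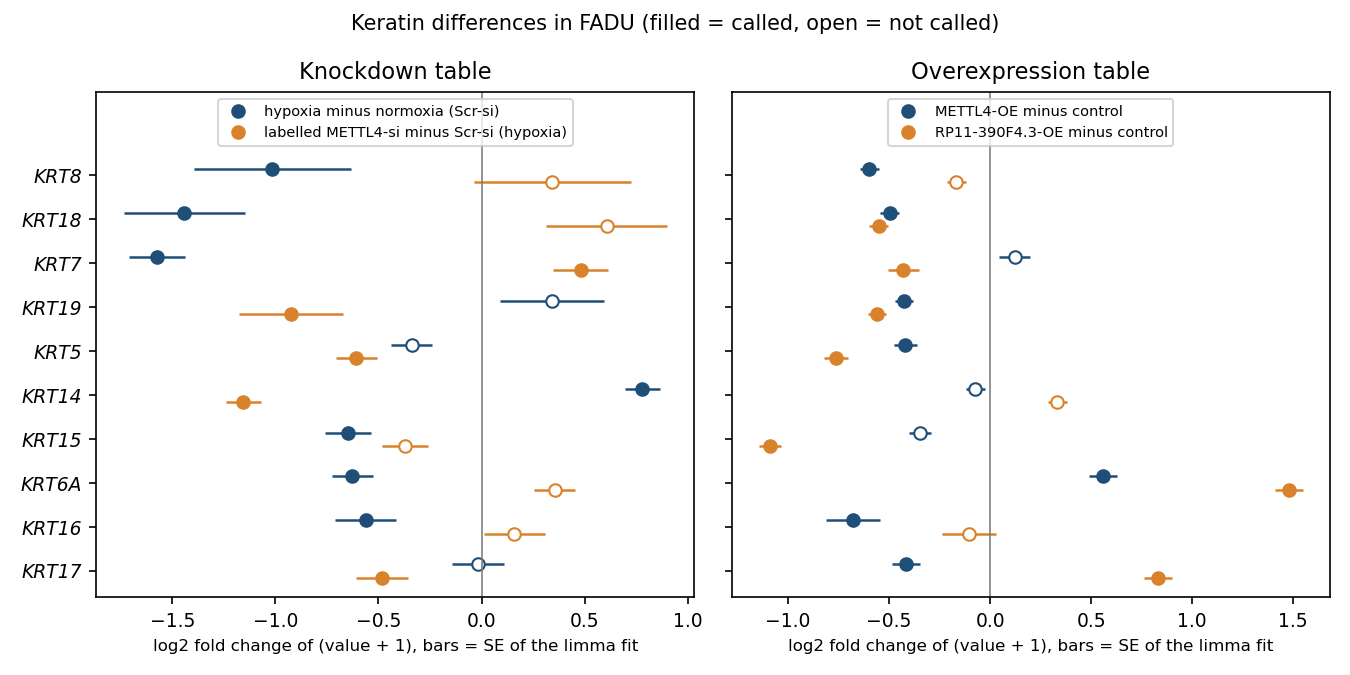
Log2 fold change of (value + 1) for the 10 keratins in FADU, with the standard error of the limma fit as bars, for the knockdown table on the left and the overexpression table on the right. Filled points passed the criterion and open points did not; both contrasts of a panel share libraries. KRT14 lies at 0.78 for hypoxia and -1.16 for the libraries labelled METTL4-si, and KRT6A at 0.56 and 1.48 for METTL4-OE and RP11-390F4.3-OE.

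In hypoxic METTL4 mutant FADU clones, KRT17, KRT19, KRT15 and KRT7 were lower than in the CRISPR control in both clones. There was 1 library for each clone and 1 control, so the differences have no replicate check and no test was made, and the 95% intervals given are exact binomial ones that cover counting error only. By 1.3-fold in both clones, 4 of 10 keratins were lower and 0 were higher, against 15.9% and 13.0% of the 15719 genes listed. Below the control in both clones by any amount were 9 of 10, against 40.7% of genes. With libraries scaled to 1 total over genes, 6 of 10 were below the control in both clones, against 31.7% of genes, and 3 were lower by 1.3-fold, against 11.9%, since KRT7 no longer passed. That scaling moved the median log2 ratio of all genes from 0.00 to 0.12 in clone 1 and from -0.01 to 0.09 in clone 2, and KRT14, KRT18 and KRT6A in clone 2 then lay at 0.08, 0.005 and 0.02. METTL4 itself was at 12.5 in the control, 15.9 in clone 1 and 10.6 in clone 2, which says nothing about its edited motif.

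KRT17 was at 135 in the control, 54.5 in clone 1 and 79.7 in clone 2, ratios of 0.404 (0.382 to 0.426) and 0.590 (0.562 to 0.620). KRT19 was at 618, 403 and 428, ratios of 0.652 and 0.693. KRT15 was at 51.1, 24.5 and 36.4, ratios of 0.480 and 0.714, and KRT7 at 8.16, 3.81 and 5.87, ratios of 0.467 and 0.719. In clone 2 the counting intervals of KRT7, 0.593 to 0.870, and KRT15, 0.6615 to 0.7699, span 1.3-fold lower. In each of these 4 the value of clone 1 was the lowest.

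The clones differed from each other for the abundant pairs. KRT14 was at 126 in the control, 59.0 in clone 1 and 124 in clone 2, ratios of 0.469 (0.445 to 0.495) and 0.985 (0.943 to 1.03). KRT8 was at 682, 418 and 628, and KRT18 at 340, 193 and 317. For KRT8 the ratios were 0.614 and 0.921 and for KRT18 0.570 and 0.935. Clone 1 lay well below the control for KRT5 too (1660, 1112 and 1475), and clone 2 stayed within 1.3-fold of it. KRT6A (13.1, 10.5 and 12.3) and KRT16 (2.64, 2.98 and 2.33) were within 1.3-fold of the control in both clones.

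**Figure D5:**
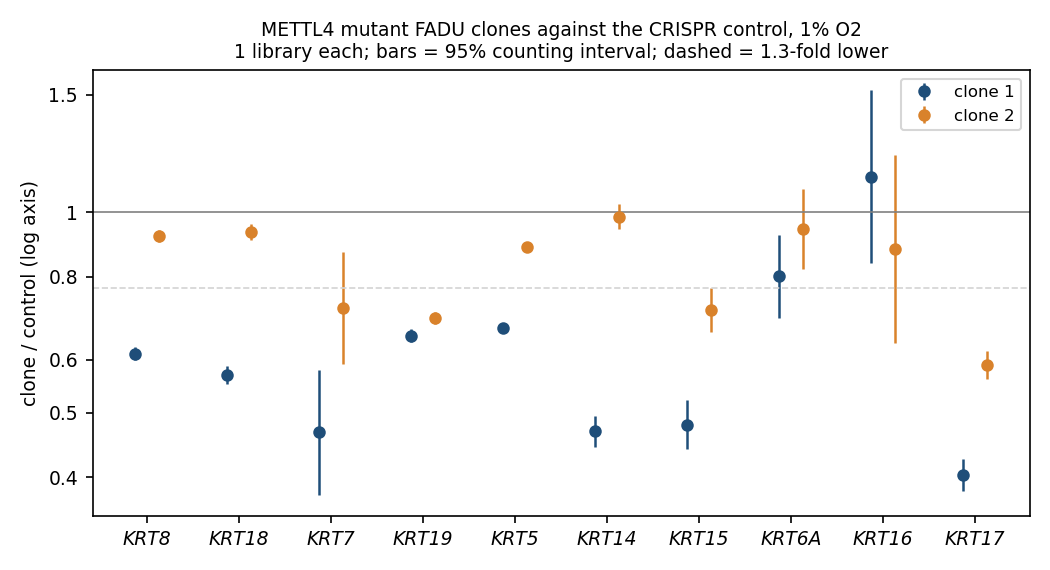
Ratio of each METTL4 mutant FADU clone to the CRISPR control at 1% O2 for the 10 keratins on a log axis, 1 library each, with bars for the 95% counting interval and a dashed line at 1.3-fold lower. Both clones lie below the dashed line for KRT7, KRT19, KRT15 and KRT17, while for KRT14, KRT8, KRT18 and KRT5 only clone 1 does.

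The balance of the chains also differed between groups. In FADU the summed type II keratins (KRT5, KRT6A, KRT7 and KRT8), per kilobase of transcript, were 1.39 and 1.38 times the summed type I keratins in normoxia and 1.21 and 1.21 times in Scramble-si hypoxia, and 1.25 and 1.41 times in the libraries labelled METTL4-si. The ratio was 1.45 and 1.47 in control vector cells, 1.41 and 1.41 in METTL4-OE, and 1.40 and 1.37 in RP11-390F4.3-OE. In the mutant experiment it was 1.29 in the CRISPR control, 1.43 in clone 1 and 1.49 in clone 2. These sums use the MANE Select length, the alternative added after the values were seen, and were not made per kilobase of merged exons. Mean KRT8 in normoxic Scramble-si was 1003 by the first length and 260 by the second. The ratio, and whether type II exceeds type I, therefore depends on the length chosen. The total itself moved: the type II sum was 2362 and 2116 in normoxia, 1419 and 1506 in hypoxia, and 1621 and 1064 in the libraries labelled METTL4-si. These are mRNA levels, and in bulk samples fewer cells with a keratin and less mRNA per cell cannot be told apart.

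The gene lists that follow are described by counts, to be read against the shares of all genes given above for each comparison: 12.4% up and 12.5% down in FADU hypoxia, 15.2% and 16.8% in the libraries labelled METTL4-si, 8.30% and 11.1% in METTL4-OE, and 16.8% and 12.8% in RP11-390F4.3-OE. In BFTC909 the shares were 19.5% up and 19.2% down in hypoxia, and 15.7% and 12.9% in METTL4-si. By 1.3-fold in both mutant clones, 13.0% of genes were higher and 15.9% lower. The median log2 fold change of all genes lay between -0.03 and 0.02 in the tested comparisons. The lists hold few tested genes and were not tested as groups.

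Of 31 other keratins in the list, 10 were listed in the FADU knockdown table and 11 in the overexpression table. KRT4 and KRT13, the pair of suprabasal cells in non-cornified stratified epithelium, were lower in both overexpression groups. KRT4 was at 31.9 and 36.1 in controls, 4.08 and 3.94 in METTL4-OE, and 2.78 and 1.84 in RP11-390F4.3-OE, with log2 fold changes of -2.80 and -3.41 (limma adjusted p = 2.50e-09 and 2.14e-10). KRT13 was at 30.8 and 27.7 in controls, 6.96 and 6.12 in METTL4-OE, and 6.16 and 5.78 in RP11-390F4.3-OE. In hypoxia, KRT13 fell by 1.58 and KRT4 by 0.81. In all, 0 of 7 tested other keratins rose and 5 fell in hypoxic FADU, 2 rose and 0 fell in the libraries labelled METTL4-si, 0 of 8 rose and 3 fell in METTL4-OE, and 2 rose and 5 fell in RP11-390F4.3-OE, with list medians of -0.90, 0.75, -0.21 and -0.71 in that order. KRT80, a keratin found in many epithelia, was at 104 in FADU METTL4-si replicate 1, with raised breast markers, and at 33.2 in replicate 2. Hypoxic Scramble-si FADU held it at 35.2 and 34.3. KRT81 was at 7.30 and 0.0890 against 0.449 and 0.456. KRT75 was even, at 1.71 and 1.78 against 0.359 and 0.502. The list counts and the median of 0.75 were not recomputed without replicate 1. In the mutant experiment, KRT80 was at 31.8 in the CRISPR control and at 61.7 and 74.0 in the mutant clones. In BFTC909 it was at 166 and 159 in normoxia and at 92.3 and 99.0 in hypoxia.

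Of 17 genes of stratified differentiation in the list, only 4 were tested in FADU, and 3 of them rose in hypoxia and 0 fell: TGM1, the cross-linking enzyme of the cornified envelope, by 1.68, FLG (filaggrin) by 1.35 and SFN (stratifin) by 0.55. In the libraries labelled METTL4-si, TGM1, FLG and SFN fell, by 2.02, 1.84 and 1.22, and KLK5, a kallikrein protease, rose by 0.61. In METTL4-OE 0 of 4 rose and 3 fell, led by TGM1 (-0.91), and in RP11-390F4.3-OE 3 rose, by 0.76 to 0.80, and 0 fell. The medians of the 4 genes were 0.95, -1.53, -0.66 and 0.77 in that order. In BFTC909, 2 were tested: SBSN rose by 0.64 in hypoxia and FLG fell by 1.70 in METTL4-si. In both mutant clones, 2 of 4 listed were lower by 1.3-fold.

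All 11 transcription factors in the list of regulators of keratin genes were tested in FADU. In hypoxia, 4 rose and 3 fell: EHF rose by 1.66, OVOL1 by 0.98 and TP63, the master factor of basal cells, by 0.66, while SOX2 fell by 2.13. In the libraries labelled METTL4-si, 3 rose and 3 fell, with EHF at -1.82, TP63 at -0.79 and SOX2 at 1.73. TFAP2C was at 64.7 and 32.6 there against 24.5 and 24.4 in hypoxic Scramble-si. Replicate 1, with raised breast markers, was the higher, and these counts were not recomputed without it. In METTL4-OE, 1 rose and 5 fell, ELF3 the furthest (-1.53). In RP11-390F4.3-OE, 5 rose and 2 fell, EHF by 1.67, OVOL1 by 1.07 and KLF4 by 1.02. The list medians were 0.10, -0.33, -0.17 and 0.19 in that order. TP63 was at 216 on average in controls, 221 in METTL4-OE and 388 in RP11-390F4.3-OE. In BFTC909, 4 were tested, of which 1 rose and 1 fell in hypoxia and 2 rose and 1 fell in METTL4-si. The risers in METTL4-si were KLF4 (15.1 and 23.1 against 10.2 and 10.9) and TFAP2A (1.88 and 7.70 against 0.771 and 1.29). Replicate 2 was the higher for both, and the size of the TFAP2A rise rests on it.

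The 11 genes that link keratin filaments to junctions or to each other moved in both directions. In FADU hypoxia, 1 of 10 tested rose, PKP1 (plakophilin 1) by 0.84, and 2 fell, PPL (periplakin) by 0.57 and PLEC (plectin) by 0.44. In the libraries labelled METTL4-si, 1 rose and 3 fell, the plakophilins PKP3 (-0.76), PKP2 (-0.66) and PKP1 (-0.66). In METTL4-OE, 1 rose (PLEC, 0.63) and 2 fell (PKP1, -1.02, and EVPL, -0.41). In RP11-390F4.3-OE, 1 rose (PKP3, 0.50) and 1 fell (PPL, -0.69). The list medians were -0.08, -0.23, 0.16 and 0.04 in that order. For BFTC909, 8 were tested, of which 4 rose and 2 fell in hypoxia and 1 rose and 1 fell in METTL4-si. The riser in METTL4-si was DSP, at 13.4 and 97.5 against 8.19 and 8.46 in hypoxic Scramble-si. The size of that rise rests on replicate 2. In both mutant clones, 3 of 10 were higher and 0 lower by 1.3-fold.

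Of 12 other intermediate filament genes, 7 were tested in the FADU knockdown table, and 1 rose and 1 fell in hypoxia. In the libraries labelled METTL4-si, 2 rose and 3 fell, the fallers including LMNA (lamin A/C, -0.78) and LMNB2 (-0.73). NES was at 3.47 and 1.42 there against 0.449 and 0.958 in hypoxic Scramble-si. Replicate 1 was the higher, and the counts were not recomputed without it. In METTL4-OE 2 of 8 rose and 1 fell, and in RP11-390F4.3-OE 3 rose and 1 fell, with list medians of -0.08, -0.35, 0.22 and 0.16 over the 4 comparisons. VIM was among the risers in both, from 0.334 and 0.279 in controls to 2.39 and 2.45 in METTL4-OE and to 3.02 and 2.01 in RP11-390F4.3-OE, levels far under those of BFTC909. In BFTC909, 1 of 7 rose and 2 fell in hypoxia, VIM by 0.71 upwards, and 0 rose and 4 fell in METTL4-si, VIM by 0.49. In the mutant clones 4 of 8 were higher by 1.3-fold in both and 0 were lower.

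Across the 12 replicated FADU libraries, the genes whose centred log2 profile lay nearest to a keratin were named for the 9 keratins above a mean value of 5 in both tables, among 10950 genes. KRT8 and KRT18 were among the 3 nearest of each other, at a root mean square distance of 0.206 on the log2 scale. KRT5 was among the 3 nearest to KRT15 (0.159), and JDP2 (0.129) was the nearest. The nearest to KRT14 was MBNL2 (0.066), to KRT6A CXCL1 (0.149), to KRT17 S100A14, to KRT19 NQO1 (0.213), to KRT5 TNNI2 (0.107) and to KRT7, among genes with a symbol, CCDC86 (0.185). The distances are descriptions over libraries that share groups and tables.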

How the data were processed

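Total RNA of 21 samples was sequenced by the authors from libraries made with a ribosomal RNA depletion and stranded kit, per the labels. Per the labels, reads were trimmed with Trim Galore, aligned to hg19 with HISAT2, counted with HTSeq and normalized with edgeR; the versions and counting settings are not given in the sources used here. The deposited values are a signal per gene, TMM-normalized CPM, which the authors made from counts divided by library size times the TMM factor, in 4 tables of 19505, 17232, 18316 and 15719 genes. Values of a table are whole multiples of what 1 read is worth (within 0.05 read for 100% of values), which gave the reads behind them. Further files hold only the authors' own comparisons (log2 fold changes and p-values) and were not used. In the mutant table, 40.9% to 43.0% of each column lay in rows that name no gene and were left out.

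Identifiers were matched to symbols through GENCODE v44 lifted to GRCh37, for 18887, 16721, 17763 and 15308 genes in that order. The test was limma 3.58.1 in R 4.3.3, run on log2(value + 1) with a mean-dependent prior variance (eBayes trend), after genes reaching 1 in fewer than 2 libraries had been dropped, and the 3 groups of a table shared the spread. A gene was called at 1.3-fold with an unadjusted p under 0.05. Adjusted p-values are Benjamini-Hochberg values over all genes tested. The test was tried on simulated data first. As alternatives, pseudocounts of 0.1 and 5, filters, edgeR 4.0.16 on whole reads with TMM or DESeq2 size factors, median centring, the compared groups alone, a replicate block, adjusted p-values and each library left out were used. Over the whole table, a comparison had 3032 to 5748 genes called with limma and 3404 to 6022 with edgeR. Columns of the RP11-390F4.3-OE group were assigned by elimination. Between replicates of a group, counts differed by more than sampling noise (chi-square per degree of freedom of 2.06 to 28.3).

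The member keratins, gene lists, markers and rules were chosen with earlier results of these data known. Named genes are the members, METTL4 and CA9, up to 3 genes in each direction for each list, defining markers that differ within a group, and genes among the 3 nearest to each keratin. GATA3, GREB1, TFF1, COL3A1, EPCAM, CLDN4, SULF2, MUC16, KRT80 and VIM in single libraries were picked with their values in view. Items withheld for evaluation are not reported here.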

Additional observations from a re-analysis of the deposited data

How the results depend on the processing

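Of 903 values of single keratins under alternatives, 830 kept their direction and side of the threshold or, in the untested mutants, moved by less than the spread between clones, 30 lost the call, 33 gained it, 8 changed sign and 2 moved. The 8 sign changes were 6 of KRT17 in FADU hypoxia, where no setting called it (0.023 with edgeR and TMM, 0.016 with DESeq2 size factors, 0.032 with median centring, 0.003 without the libraries with raised breast markers, 0.003 without normoxia replicate 1 and 0.136 without hypoxia replicate 1, in a range of -0.168 to 0.136 with each library left out), and 2 of KRT8 in the FADU libraries labelled METTL4-si (-0.333 without the libraries with raised breast markers or without replicate 1, in a range of -0.333 to 1.020 with each library left out). In the mutant clones, KRT19 moved to -0.49 and -0.42 when libraries were scaled to 1 total over genes, the 4 keratins lower in both clones became 3, and KRT18 (0.005), KRT14 (0.080) and KRT6A (0.018) in clone 2, uncalled and so not among the 8, crossed 0. Leaving out each library in turn gave these ranges. In FADU hypoxia, 1 to 1 keratins rose and 4 to 6 fell. In METTL4-si, 0 to 3 rose and 2 to 5 fell. In BFTC909, 0 to 2 fell in hypoxia and 0 to 2 rose in METTL4-si. With RP11-390F4.3-OE 4 to 5 fell, and against METTL4-OE 4 to 5 were higher and 2 to 3 lower.

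Without the 2 FADU libraries with raised breast markers, chosen after seeing the data, 2 keratins rose in hypoxia. Without BFTC909 METTL4-si replicate 2, chosen likewise for its GATA3, GREB1 and simple epithelium markers and not for its summed breast markers, 2 fell in hypoxia and 2 rose in METTL4-si. In METTL4-si FADU, 0 rose with a pseudocount of 5. For BFTC909 METTL4-si, 2 rose with a pseudocount of 0.1 or with edgeR under either scaling, and 0 with a pseudocount of 5, a mean value of at least 5, the compared groups alone or adjusted p-values. With the compared groups alone, 2 fell in BFTC909 hypoxia. With libraries centred on their median, 3 keratins were higher in RP11-390F4.3-OE than in METTL4-OE. The cause of these shifts was not tested. With a replicate block, 2 keratins rose in FADU METTL4-si, 1 fell in BFTC909 hypoxia and 2 rose in BFTC909 METTL4-si, and no other count changed. Equal numbers were not taken as pairs, since the differences between replicates correlated by 0.648 between FADU normoxia and METTL4-si and by -0.0652 to 0.154 between other groups. No paired analysis was possible for RP11-390F4.3-OE because its columns carry no replicate number of the labels. With 2 libraries a group, or 1 for the mutants, precision is limited by library number, and KRT16 also by reads (44 to 129 a library).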
